A study of Mus musculus with 6 samples.

Results

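A convergent start pair is a plus-strand peak of transcription starts followed, in genome order, by a minus-strand peak, so that the 2 transcripts run towards each other. The members were chosen by position and level alone: both peaks reached at least 1 CPM (tags scaled to the size of the library) in 3 or more of the 6 libraries, no other peak of that level lay between them, and the minus-strand peak began 0 to 1000 bp after the end of the plus-strand peak. Of 19142 pairs of neighbouring peaks, 3379 were convergent at any gap and 419 met the limit. These 419 pairs hold 838 different peaks, out of 19162 peaks of sufficient level and 158966 listed. The group contrast was not part of the rule, but the level filter was, and a peak can pass it through 1 group alone. The rule was set with earlier results of these data known.

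The libraries are cap analysis of gene expression (CAGE) from Ba/F3, a BALB/c mouse pro-B cell line used to study kinases that replace its cytokine. One group of 3 libraries comes from cells with FLT3-ITD, an internal tandem duplication in a receptor tyrosine kinase, and the other 3 from cells with FLT3-ITD and D835Y, a substitution in the activation loop of the same kinase, here called the double mutant. Both groups share the FLT3-ITD allele, the medium with serum and antibiotics, and the library method. The labels do not say whether each line is a clone, which promoter drives the receptor, or whether replicates came from separate cultures. The p-values therefore rest on a spread between samples that may be technical only.

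CAGE sequences the capped ends of RNA, so a peak marks where transcription starts and on which strand. Many mammalian promoters give rise to divergent transcripts that run away from each other. In the convergent arrangement each start lies ahead of its partner in the partner's direction, though capped ends do not show how far transcripts run. Such antisense starts are known just inside the first part of many genes, and polymerases that meet head-on can hinder one another. The files name peaks by position and strand only, so no gene is named here, the pro-B label was not checked against marker genes, and the peaks of a pair are called stronger and weaker by their mean over all libraries instead of sense and antisense. Coordinates are those of the files, for the mouse build mm9.

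The libraries held 5884258 to 13977941 tags, which makes 1 tag worth 0.0715 to 0.170 CPM so a count of 0 allows a level of 3 tags, between 0.215 and 0.510 CPM by library. FLT3-ITD replicate 2 had the fewest tags and double-mutant replicate 2 the most. In 411 of the 419 pairs both peaks had at least 1 tag in every library, and in 193 both were at 1 CPM or more in all 6. In 20 pairs a peak reached 1 CPM in the 3 double-mutant libraries only, and in 6 pairs in the 3 FLT3-ITD libraries only. Such a peak passed the filter only through the group where it was high, so its difference is partly built into the choice.

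Convergent peaks were set further apart than divergent ones. The median gap was 280 bp (quartiles 147.5 and 452 bp), against 126 bp for 1379 divergent pairs and 58 bp for 6120 same-strand pairs within the same limit. A gap from 100 to under 400 bp was found in 219 pairs (52.3%), a share like that of divergent pairs (51.6%), whereas a gap over 500 bp was found in 19.6% of convergent and 5.15% of divergent pairs. Gaps of 50 to 99 bp were few, with 27 pairs against 46 at 0 to 49 bp. Of the 53 pairs with a gap under 60 bp, 15 held a peak that varied widely within a group, as described below. These shares describe the peak list and carry no test.

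**Figure D1:**
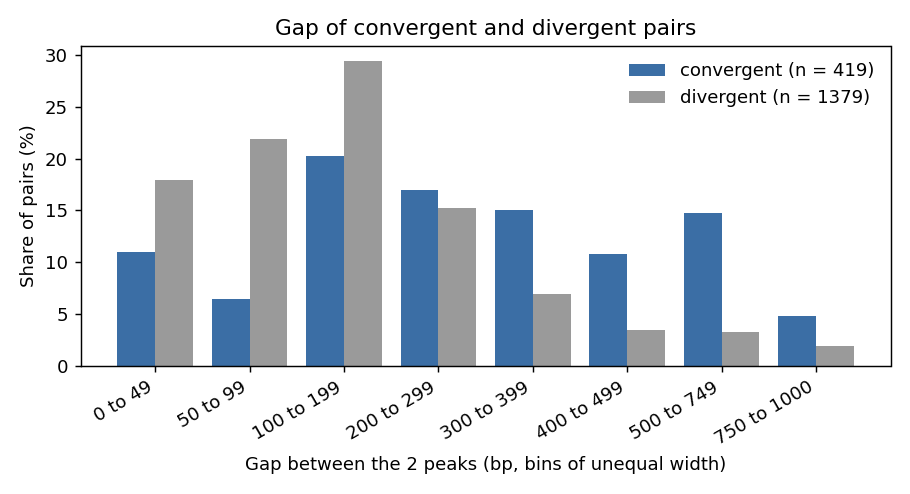
Share of pairs (%) in each class of gap (bp, bins of unequal width) for the 419 convergent pairs (blue) and the 1379 divergent pairs (grey). Both are highest in the bin that starts at 100 bp, with 20.3% of convergent and 29.4% of divergent pairs. That bin is wider than those before it. From 200 bp on every bin holds a larger share of the convergent pairs.

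At the upper limit of the gap, the pair furthest apart lay on chromosome 2, with a plus-strand peak at 17949361 to 17949375 and a minus-strand peak at 17950368 to 17950397, 993 bp apart, at means of 1.60 and 0.756 CPM. The next, on chromosome 5, joined 96589776 to 96589784 and 96590767 to 96590793 over 983 bp, at 2.24 and 2.58 CPM. Just outside the limit were a pair on chromosome 4 from 107474886 with a gap of 1068 bp (16.3 and 1.07 CPM) and one on chromosome 7 from 140901034 with a gap of 1072 bp (24.9 and 2.01 CPM). Another 21 convergent neighbours overlapped and so had no gap. With a filter of 1 CPM in 2 libraries there would be 82 pairs that are not members, and with one of 1 CPM in all 6 libraries 213 pairs, 193 of them members.

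Members lay on 20 chromosomes. Chromosome 11 held 45, chromosome 7 held 39 and chromosome 3 held 34, which is 27.0, 26.4 and 37.4 pairs per 1000 tested peaks. Chromosome X had 7 pairs, or 12.7 per 1000. Most members were not alone: 331 had a further tested peak within 1000 bp on an outer side and 88 had none. The stronger peak had a divergent neighbour behind it in 123 pairs, a same-strand neighbour in 143 and none in 153. The weaker peak had no such neighbour in 218 pairs.

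The 2 peaks of a pair were mostly unequal, and the weaker was usually close to the level filter. The stronger peak had a median level of 8.82 CPM and the weaker 1.70 CPM, and the median ratio was 3.61 (quartiles 1.73 and 13.7). In 122 pairs the peaks were within a factor of 2, in 168 they differed by 2 to 10 times, in 114 by 10 to 100 times, and in 15 by 100 times or more. The weaker peak was under 2 CPM in 248 pairs and at 10 CPM or more in 15. Since a weaker peak near the filter is often all that makes a pair, its level is set in part by the rule. The plus strand held the stronger peak in 211 pairs and the minus strand in 208, and in 324 pairs (77.3%) the same peak was the higher one in all 6 libraries. The stronger peaks were wider, with a median of 37 bp against 29 bp, and the weaker one was the narrower in 246 pairs and the wider in 169. The order of median widths was the same in divergent pairs (48 and 39 bp) and same-strand pairs (42 and 24 bp). Divergent pairs had a similar ratio (median 4.90) at higher levels (21.8 and 2.50 CPM).

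**Figure D2:**
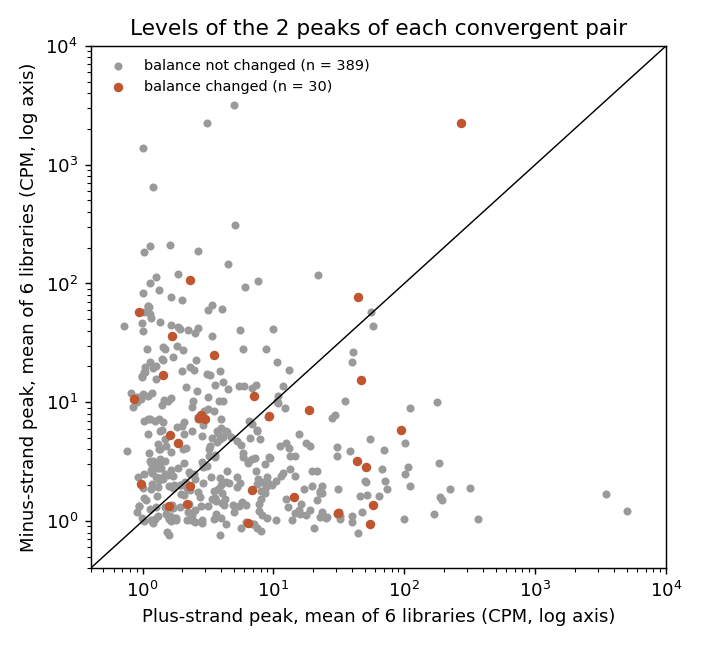
Mean level over 6 libraries of the plus-strand peak (horizontal, CPM, log axis) and the minus-strand peak (vertical, CPM, log axis) of each of the 419 pairs, with the line of equal levels. In 248 pairs the weaker peak lies under 2 CPM, close to an axis, and the 30 pairs whose strand balance changed between the groups (orange) are spread over both sides of the line.

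Among the 6 most active pairs the ratio of the strands ran from 8.33 to 4147. On chromosome 13 the plus-strand peak at 23646892 to 23646908 had 5123, 6145 and 7037 CPM in FLT3-ITD and 4213, 4332 and 3434 CPM in the double mutant. The minus-strand peak that faces it, 512 bp on at 23647420 to 23647454, had 1.27, 2.38, 1.14, 0.503, 0.429 and 1.58 CPM in the same order. The weaker peak thus held 0.0241% of the pair, and the stronger was 4147 times as high. On chromosome 3 the plus-strand peak at 96072594 to 96072606 held 3500 CPM on average and its partner at 96073358 to 96073396 held 1.69 CPM. On chromosome 11 the minus-strand peak at 116714397 to 116714413 held 1381 CPM and the plus-strand peak at 116713799 to 116713888 held 0.999 CPM. In each of these 3 pairs the weak partner was at or near the level that admits a peak.

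Of the 6 most active pairs, 1 had a weaker peak above 5 CPM. On chromosome 3, between a plus-strand peak at 96023800 to 96023823 and a minus-strand peak at 96024804 to 96024822 (gap 981 bp), the means were 271.5 and 2262 CPM. The other 2 of the 6 were on chromosome 16, with 4.98 CPM on the plus strand at 76403570 to 76403623 and 3171 CPM on the minus strand at 76403918 to 76403962, and on chromosome 3, with 3.12 CPM at 108357522 to 108357578 and 2238 CPM at 108357655 to 108357671. A pair on chromosome 4, picked after its values were seen, had 55.2 CPM on the plus strand at 40216596 to 40216628 and 57.1 CPM on the minus strand at 40216811 to 40216882. The 3 pairs most alike, on chromosomes 7 (from 135381025), 19 (from 59418983) and 17 (from 46995166), had ratios of 1.004, 1.01 and 1.01 and summed levels of 4.97, 7.21 and 4.25 CPM.

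Whether the double mutant differs from FLT3-ITD at these starts was asked with limma on log2(CPM + 1), fitted over all 19162 peaks with Benjamini-Hochberg adjustment. A peak is said to have changed when its adjusted p was under 0.05, and each difference is the double-mutant mean less the FLT3-ITD mean on that scale, which understates the change of low peaks. Among the 838 member peaks 143 (17.1%) changed, while 24.4% of all tested peaks did. Of the 143, 99 were higher in the double mutant (11.8% of members, background 14.1%) and 44 lower (5.25%, background 10.4%). The stronger peak changed in 87 pairs, 58 up and 29 down, and the weaker in 56 pairs, 41 up and 15 down. A peak reached 1 CPM in the double mutant only in 20 pairs and in FLT3-ITD only in 6, so these directions are partly built into the choice. Of the 1379 divergent pairs, the stronger peak was up in 201 and down in 123, and the weaker up in 188 and down in 46. The median difference over member peaks was 0.09, and 0.05 over all tested peaks.

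The lower share of calls was read beside the level, because 513 of 838 member peaks and 8912 of 19162 tested peaks had means under 5 CPM. Among peaks of at least 20 CPM, 38 of 132 members (28.8%) and 28.8% of all tested peaks changed. From 5 to 20 CPM it was 42 of 193 (21.8%) against 27.5%. From 2 to 5 CPM it was 27 of 229 (11.8%) against 22.8%, and below 2 CPM 36 of 284 (12.7%) against 17.5%. The shares were thus alike for active peaks and lower among members for low ones. The share of calls that were higher, 69.2% among members, was 59.5% after TMM scaling (88 against 60) and 56.1% with DESeq2 (46 against 36). Over all tested peaks this share was 57.6%, with 49.8% after TMM scaling and 48.1% with DESeq2. With the replicate block it was 71.1% among members and 58.3% over all tested peaks. With a library left out it was between 65.2% and 77.6% among members and between 52.7% and 62.3% over all tested peaks. The count of changed member peaks was 90 without FLT3-ITD replicate 1 and 90 without FLT3-ITD replicate 2.

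Among the most active pairs, the stronger peak changed in 2 and the weaker in 1. The chromosome 13 peak at 23646892 had group means of 6102 ± 958 CPM (SD, n = 3) in FLT3-ITD and 3993 ± 488 CPM (SD, n = 3) with the second mutation, a fall of -0.61 (limma adjusted p = 0.0058), with no overlap between groups. Its partner at 23647420 had 1.60 ± 0.68 and 0.838 ± 0.645 CPM and did not pass (limma adjusted p = 0.16). On chromosome 16 the minus-strand peak at 76403918 had 2393, 2578 and 2134 CPM in FLT3-ITD and 4238, 3713 and 3969 CPM in the double mutant, a rise of 0.75 (limma adjusted p = 0.00037). The plus-strand peak facing it, at 76403570, ranged from 2.29 to 7.22 CPM over the 6 libraries, with groups that overlapped (limma adjusted p = 0.83). In the chromosome 3 pair from 96023800, the plus-strand peak fell while the minus-strand peak at 96024804 did not pass, and this pair is taken up below.

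Both peaks of a pair changed in 21 pairs, and in 20 of these they moved the same way, 18 up and 2 down. That is 4.77% of convergent pairs, where 8.15% of neighbouring pairs of any orientation within 1000 bp had both peaks changed the same way (5.15% of divergent and 9.05% of same-strand pairs). Some joint rises hold a peak that reached 1 CPM in the double-mutant libraries only. These pairs start at 17949361 on chromosome 2, 82602619 on chromosome 6, 103214216 on chromosome 12, 75911077 on chromosome 15 and 6061438 on chromosome 19. Their joint rise is partly built into the choice, and neither joint fall holds such a peak. In 66 further pairs only the stronger peak changed, in 35 only the weaker, and in 297 neither. Changes had the same sign in 276 of 419 pairs (65.9%), a share like that of divergent pairs (65.7%). Across the 419 pairs, whose peaks share libraries and depth, the Pearson correlation of the 2 changes was 0.46, beside 0.42 for divergent and 0.62 for same-strand pairs.

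**Figure D3:**
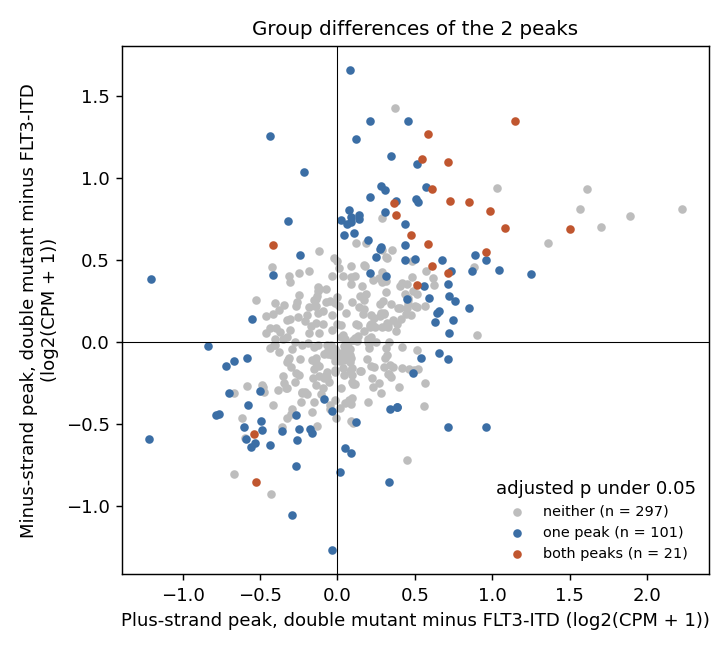
Difference of the plus-strand peak (horizontal) and the minus-strand peak (vertical) of each pair in log2(CPM + 1), positive where the double mutant was higher. Of the 21 pairs with both peaks past the threshold (orange), 18 lie in the upper right, 2 in the lower left and 1 in the upper left; 101 pairs had 1 such peak (blue) and 297 none (grey).

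By the smaller of its 2 differences, the largest joint rise was on chromosome 15. The plus-strand peak at 80541722 to 80541770 had 8.48, 7.65 and 7.19 CPM in FLT3-ITD and 18.6, 19.2 and 17.3 CPM in the double mutant, a rise of 1.15 (SE 0.14, limma adjusted p = 7.7e-05). The minus-strand peak 654 bp on, at 80542424 to 80542435, had 1.36, 1.36 and 3.25 CPM against 6.46, 6.65 and 5.83 CPM, a rise of 1.35 (SE 0.23, limma adjusted p = 0.0010). Both peaks were higher in every double-mutant library than in any FLT3-ITD library, and their balance did not pass the test described below (limma adjusted p = 0.67).

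Chromosome 19 held 5 of the 18 joint rises. On that chromosome 363 of 795 tested peaks were higher in the double mutant and 21 lower, and 16 of 32 member peaks were higher and 0 lower, and the median difference was 0.45 for both members and tested peaks. At 59418983 to 59419002 the plus-strand peak went from 2.28 ± 0.38 to 4.90 ± 0.33 CPM, and the minus-strand peak at 59419714 to 59419726 went from 2.32 ± 0.71 to 4.92 ± 0.82 CPM (SD, n = 3 each). The strands thus stayed about equal while both rose, with differences of 0.85 on each. The pair at 7025236 to 7025255 and 7025963 to 7026004 rose by 0.99 and 0.79, from means of 0.997 and 1.20 CPM to 2.94 and 2.81 CPM. With each chromosome's mean removed, the differences of the first pair were 0.43 and 0.43 and both calls were lost (limma adjusted p = 0.11 and 0.15), and those of the second were 0.56, still called, and 0.37 (limma adjusted p = 0.24). The minus-strand call of the second pair was also lost with DESeq2 and without FLT3-ITD replicate 2 or double-mutant replicate 3.

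A joint rise was also seen where the strands were far from equal. On chromosome 6 the minus-strand peak at 82602850 to 82602875 had 144.7, 142.8 and 141.3 CPM in FLT3-ITD and 223.7, 363.4 and 214.6 CPM in the double mutant, a rise of 0.86. The plus-strand peak at 82602619 to 82602640 had 0.780, 0.680 and 0.351 CPM against 1.68, 1.14 and 2.18 CPM, a rise of 0.72 (limma adjusted p = 0.023), on 16 and 58 pooled tags. The plus-strand peak reached 1 CPM in the double mutant only, so it entered through the group where it is high and its rise is partly built into the choice. Its call was lost with DESeq2 (adjusted p = 0.10) and without FLT3-ITD replicate 2, FLT3-ITD replicate 3, double-mutant replicate 1 or double-mutant replicate 3.

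Both joint falls were on chromosome 9, where 304 of 1136 tested peaks were lower and 37 higher. The plus-strand peak at 102528608 to 102528658 had 132.0, 129.0 and 133.5 CPM in FLT3-ITD and 100.3, 81.1 and 92.7 CPM in the double mutant, and its partner at 102528867 to 102528894 had 13.1, 11.2 and 11.1 against 7.64, 6.30 and 4.55 CPM. These are falls of -0.53 and -0.86 (limma adjusted p = 0.0041 and 0.0039). The second pair, at 120019467 to 120019536 and 120019858 to 120019890, fell from 37.0 to 25.3 CPM and from 2.40 to 1.29 CPM. Its minus-strand call was close to the threshold (limma adjusted p = 0.046), and was lost with DESeq2, with no filter on low values, with the replicate block (limma adjusted p = 0.063) and on leaving out any library but FLT3-ITD replicate 1. Its plus-strand call was lost without FLT3-ITD replicate 1, FLT3-ITD replicate 2 or double-mutant replicate 1. With each chromosome's mean removed, neither pair kept both calls: the first had -0.28 (limma adjusted p = 0.10) and -0.62, still called, and the second -0.29 and -0.32 (limma adjusted p = 0.16 and 0.25).

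The number of pairs that moved the same way was 6 once each chromosome's mean was removed, and 4 with DESeq2. It was 7 without FLT3-ITD replicate 1, FLT3-ITD replicate 2 or double-mutant replicate 1, 9 without FLT3-ITD replicate 3 and 13 without double-mutant replicate 3.

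In 1 pair the 2 peaks moved apart, 0.239% of members beside 0.265% of neighbouring pairs within 1000 bp. It lay on chromosome 9. The plus-strand peak at 21216268 to 21216297 had 64.8, 61.9 and 69.8 CPM in FLT3-ITD and 46.3, 54.4 and 46.1 CPM in the double mutant, a fall of -0.42 (limma adjusted p = 0.019). The minus-strand peak at 21216685 to 21216690, 388 bp on, had 0.585, 1.02 and 1.05 CPM against 1.68, 1.72 and 2.08 CPM, a rise of 0.59 (limma adjusted p = 0.038). Neither group overlapped the other on either strand. Both calls of this pair held with TMM scaling and with a pseudocount of 0.5. The minus-strand call was lost with edgeR, DESeq2, no filter on low values, the replicate block (limma adjusted p = 0.054) and each library left out, and the plus-strand call with chromosome means removed (-0.17, limma adjusted p = 0.31) and without FLT3-ITD replicate 1, FLT3-ITD replicate 3, double-mutant replicate 1 or double-mutant replicate 3. Where those fits still counted a pair that moved apart, it was not this one: they counted 1 with chromosome means removed and on leaving out FLT3-ITD replicate 3 or double-mutant replicate 1, while leaving out double-mutant replicate 2 gave 2.

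The strand balance of a pair, log2(CPM + 1) of the plus-strand peak minus that of the minus-strand peak, was then tested directly. An equal fold change of both strands cancels in this difference where the peaks have like levels, and nearly so where both lie well above 1 CPM. Elsewhere the scale understates the change of the lower peak. At the chromosome 6 pair from 82602619, for example, the balance moved by -0.13 on this scale and by 0.58 in edgeR's diffSpliceDGE on tags, with neither past the threshold. The limma fit ran over all 19142 neighbouring pairs. The balance changed in 30 convergent pairs (7.16%), while it changed in 14.2% of all neighbouring pairs and in 7.54% of those within 1000 bp. It moved to the plus strand in 17 pairs and to the minus strand in 13, and towards the stronger peak in 14 and the weaker in 16. The groups' values did not overlap in 92 of the 419 pairs (21.96%), all 30 included, beside 33.7% of all neighbouring pairs.

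In 15 of the 30 pairs only the stronger peak passed its own test, with 9 rises and 6 falls. In 7 only the weaker passed, in 1 both passed in opposite ways, in 7 neither passed and in 0 both passed in the same way. In 35 of the 419 pairs the group means put the higher peak on different strands, and 4 of these passed the balance test. With adjustment over neighbouring pairs up to 1000 bp alone the count was 14 in place of 30. It was 16 without FLT3-ITD replicate 1, 16 without FLT3-ITD replicate 2, and 14 without either FLT3-ITD replicate 3 or double-mutant replicate 1.

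**Figure D4:**
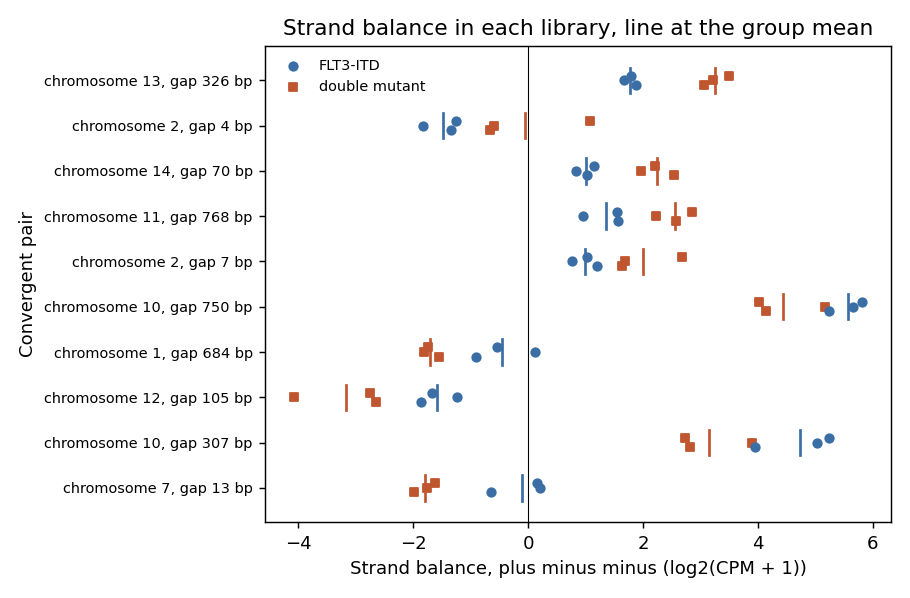
Strand balance (plus minus minus strand, log2(CPM + 1)) of 10 convergent pairs in each FLT3-ITD library (blue points) and each double-mutant library (orange squares), with lines at the group means. The upper 5 pairs moved to the plus strand in the double mutant and the lower 5 to the minus strand. The 10 were picked for passing the balance test without overlap between the groups, so that separation is set by the choice. The groups come closest at the chromosome 10 pair with a gap of 307 bp, at 3.94 and 3.90.

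The largest shift to the plus strand was on chromosome 13. The plus-strand peak at 49063736 to 49063799 had 9.26, 9.18 and 10.1 CPM in FLT3-ITD and 19.8, 20.4 and 18.1 CPM in the double mutant. The minus-strand peak at 49064125 to 49064128 had 1.95, 2.21 and 2.02 CPM against 0.839, 1.29 and 1.29 CPM. The balance rose from 1.78 to 3.26, by 1.48 (SE 0.20, limma adjusted p = 0.00076), with the plus-strand peak past its own test (adjusted p = 0.00023) and the minus-strand peak just outside it (limma adjusted p = 0.054).

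At 2 of the pairs that moved to plus, the weaker minus-strand peak was lower in the double mutant and the plus-strand peak did not pass. Both minus-strand peaks reached 1 CPM in the FLT3-ITD libraries only, so they entered through the group where they are high, and their difference and that of the balance are partly built into the choice. On chromosome 14 the minus-strand peak at 49686332 to 49686349 had 2.34, 3.57 and 3.07 CPM in FLT3-ITD and 0.587, 0.858 and 0.494 CPM in the double mutant, while the plus-strand peak at 49686180 to 49686262 had 6.95 ± 0.45 and 6.77 ± 0.82 CPM (SD, n = 3 each). The balance rose by 1.24 (limma adjusted p = 0.0038). On chromosome 11 the minus-strand peak at 69498777 to 69498837 had 1.55 ± 0.49 CPM in FLT3-ITD and 0.391 ± 0.031 CPM with D835Y, facing a plus-strand peak at 69497991 to 69498009 with 5.52 ± 0.88 and 7.33 ± 1.97 CPM. The balance rose by 1.19 (limma adjusted p = 0.0091).

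The largest shift to the minus strand was at a pair only 13 bp apart on chromosome 7. The minus-strand peak at 148661227 to 148661266 had 4.29, 3.57 and 3.60 CPM in FLT3-ITD and 10.1, 9.44 and 11.96 CPM in the double mutant, a rise of 1.25 (limma adjusted p = 0.00014). The plus-strand peak at 148661203 to 148661214 had 4.88, 4.25 and 1.93 CPM against 2.60, 2.07 and 2.27 CPM and did not pass. The balance moved by -1.69 (SE 0.26, limma adjusted p = 0.0015), from a mean of -0.10 to one of -1.79, and every double-mutant library had the higher level on the minus strand.

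At 3 further pairs that moved to minus, the stronger peak carried the change. On chromosome 12 the minus-strand peak at 52930485 to 52930504 had 4.39, 3.74 and 5.18 CPM against 12.6, 24.3 and 13.3 CPM, and the plus-strand peak at 52930331 to 52930380 stayed between 0.501 and 1.29 CPM. On chromosome 1 the minus-strand peak at 137029120 to 137029131 rose from 4.50 ± 1.25 to 10.1 ± 0.88 CPM, facing 2.998 ± 0.62 and 2.41 ± 0.30 CPM at 137028386 to 137028436. On chromosome 10 the plus-strand peak at 72664900 to 72664910 had 36.8, 48.4 and 45.4 CPM in FLT3-ITD and 24.2, 13.9 and 17.99 CPM in the double mutant. The balance of these 3 pairs moved by -1.57, -1.26 and -1.59 (limma adjusted p = 0.013, 0.0099 and 0.019). The last is the least firm of them, since its minus-strand partner at 72665217 to 72665225 was listed at 0 in FLT3-ITD replicate 1 and double-mutant replicate 2 and had 0.510 to 2.77 CPM in the other libraries. Its balance call was lost with diffSpliceDGE, with a pseudocount of 0.5 and without FLT3-ITD replicate 1, FLT3-ITD replicate 2, double-mutant replicate 1 or double-mutant replicate 3. That of the chromosome 12 pair was lost without FLT3-ITD replicate 2 (limma adjusted p = 0.060).

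On chromosome 10 a weak peak was higher in the double mutant opposite a peak that did not pass. The minus-strand peak at 89208517 to 89208523 had 0, 0 and 0.263 CPM in FLT3-ITD and 2.35, 1.14 and 1.88 CPM in the double mutant. It held 3 against 63 pooled tags, so its level was 16.1 times as high. The exact 95% interval, 5.25 to 80.0, pools the libraries of each group and covers counting error only. It makes no allowance for the choice of the peak. The plus-strand peak 750 bp before it, at 89207733 to 89207767, had 50.6 ± 4.3 and 59.7 ± 14.5 CPM (SD, n = 3 each) and did not pass (limma adjusted p = 0.34). The balance moved by -1.13 (limma adjusted p = 0.032), a call lost with adjustment over pairs up to 1000 bp apart and without FLT3-ITD replicate 1, FLT3-ITD replicate 2, double-mutant replicate 1 or double-mutant replicate 3. The weak peak entered only through the double mutant, so its difference and that of the balance are partly built into the choice. So is the difference of the minus-strand peak at 17950368 on chromosome 2. That peak also entered only through the double mutant, with 1 against 54 pooled tags.

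The chromosome 3 pair from 96023800 changed its balance at high levels. The plus-strand peak had 322.3, 349.4 and 373.2 CPM in FLT3-ITD and 191.4, 187.3 and 205.5 CPM in the double mutant, a fall of -0.83 (limma adjusted p = 0.00011). The minus-strand peak at 96024804 had 2012, 2367 and 2486 CPM against 2182, 2255 and 2273 CPM, with overlapping groups (limma adjusted p = 0.88). The balance moved by -0.81 (SE 0.19, limma adjusted p = 0.016). That call was lost without FLT3-ITD replicate 1 or FLT3-ITD replicate 3 (limma adjusted p = 0.052 and 0.051).

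Some convergent pairs held a peak that varied widely within a group. In 20 pairs (4.77%) a peak spanned more than 2 log2 units among the 3 libraries of a group, beside 1.74% of divergent and 0.899% of same-strand pairs; this limit was set after the values were seen. Of the 20, 15 had a gap under 60 bp, as had 53 of the 419 members. A cluster of 6 members lay on chromosome 2 between 98502989 and 98507439, in a window of 10000 bp with 28 tested peaks, and 5 of them were among the 20. The summed level of the 6 was 34.2, 300.8 and 611.6 CPM in FLT3-ITD and 173.9, 413.1 and 1206 CPM in the double mutant. The lowest library of each group was replicate 1 and the highest replicate 3, and the groups overlapped. Members on chromosome 9 before 4000000 had the same order of libraries, with 4.68, 20.7 and 47.8 CPM against 10.7, 33.8 and 95.5 CPM.

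Within this cluster 2 pairs passed the balance test although neither strand passed alone. The pair at 98502989 to 98503017 and 98503021 to 98503039 had 2.15, 16.5 and 37.8 CPM on the plus strand in FLT3-ITD and 33.6, 46.9 and 130.9 CPM in the double mutant. Its minus strand had 6.53, 61.0 and 97.2 CPM against 15.4, 71.4 and 207.2 CPM. The balance moved from -1.48 to -0.06, by 1.41 (SE 0.40, limma adjusted p = 0.039). The pair at 98507138 to 98507164 and 98507171 to 98507188 moved by 1.004 (limma adjusted p = 0.039). Both calls were lost with diffSpliceDGE (adjusted p = 0.75 and 0.81), with adjustment over pairs up to 1000 bp apart, with a pseudocount of 0.5, and without any 1 of the FLT3-ITD libraries or double-mutant replicate 1. The smallest gap of all members, 0 bp, is also here, between 98507205 to 98507234 and 98507234 to 98507266. The next smallest gaps, of 2 bp each, were on chromosome 4 from 46482784 (6.34 and 3.21 CPM) and chromosome 7 from 148514041 (1.70 and 1.88 CPM).

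**Figure D5:**
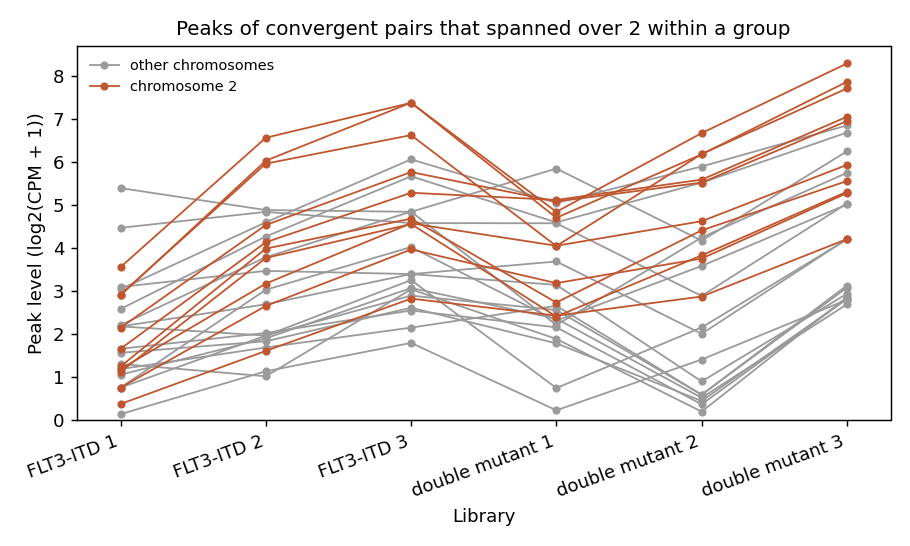
Level (log2(CPM + 1)) in each library of the 26 member peaks that spanned over 2 within a group; lines join the values of 1 peak, orange for chromosome 2 and grey for other chromosomes. The chromosome 2 peaks are lowest in replicate 1 and highest in replicate 3 of each group, while 10 of the other 16 are lowest in double mutant 2 within their group.

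Other members of the 20 were low in a different library. On chromosome 3 the plus-strand peak at 108357522 had 1.46, 1.02 and 7.19 CPM in FLT3-ITD and 2.68, 0.143 and 6.23 CPM in the double mutant, while the minus-strand peak at 108357655 stayed between 1779 and 2555 CPM. Double-mutant replicate 2 was the lowest there, at 2 tags. Without the 20 pairs, 140 member peaks changed, 20 pairs moved the same way, 1 moved apart and 28 changed their balance.

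The libraries were not alike at weaker peaks. FLT3-ITD replicate 1 was the lowest of the 6 at 113 of 419 weaker peaks (27.0%) and the highest at 25 (5.97%), and at stronger peaks the shares were 16.5% and 12.4%. Weaker peaks of divergent pairs had it lowest in 23.9%, and those of same-strand pairs in 17.0%. This library had 10256280 tags, close to the middle of the range. Double-mutant replicate 2 was the highest at 136 stronger peaks (32.5%) and at 89 weaker ones (21.2%). This was not particular to members: it was highest at 36.8% of stronger and 25.6% of weaker peaks of divergent pairs. In same-strand pairs the shares were 37.0% and 28.6%. The part of these libraries in the group differences was not tested beyond leaving each out.

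Sums over all members were compared between the groups by library. All 838 peaks together had 28629, 30743 and 32437 CPM in FLT3-ITD and 29291, 30146 and 29459 CPM in the double mutant, a difference of -971 CPM (exact two-sided permutation test p = 0.6, where 3 against 3 cannot give less than 0.1). The sign rested on the single most active pair, the chromosome 13 pair from 23646892: without it the means were 24500 CPM in FLT3-ITD and 25638 CPM in the double mutant, a difference of 1138 CPM. The weaker peaks held 4.597%, 4.77% and 5.04% of the CPM of all pairs in FLT3-ITD and 4.90%, 4.64% and 5.72% in the double mutant (exact two-sided permutation test p = 0.6). The groups overlapped in both measures. With gaps up to 500 bp the difference in summed CPM was 1803, and with 1 CPM in all 6 libraries the difference in the weaker share was -1.58 percentage points, each at the smallest exact two-sided permutation p of 0.1. The plus-strand peaks held 50.7%, 51.2% and 53.8% of the CPM in FLT3-ITD and 46.1%, 47.4% and 44.5% in the double mutant, a measure added after the values were seen. These groups did not overlap (exact two-sided permutation p = 0.1). The difference of -5.90 percentage points was -2.39 without the most active pair and 0.17 with gaps up to 500 bp. Both peaks of a pair were at 1 CPM or more in 298, 333 and 341 pairs in the FLT3-ITD libraries and in 372, 359 and 349 pairs in the double-mutant libraries, with no overlap, a count added after the values were seen. It uses the level that chose the members. A peak reached that level in the double mutant only in 20 pairs and in FLT3-ITD only in 6. The difference is thus partly built into the choice.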

How the data were processed

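CAGE tags at peaks were measured in 6 Ba/F3 libraries, 3 per group, grouped by title because the mutation label changes its position number from sample to sample. The authors deposited 1 CPM value per peak and library. Per the submitters' processing notes the tools include TopHat2 2.0.14 and edgeR 3.24.3 and the builds hg19 and mm9, with no role given; the sources used here do not say how peaks were called. All values were whole multiples of the smallest (tolerance 0.01), which gave back the tags. No genome or gene table of mm9 was used here, so no sequence is shown. The sources do not say if positions are counted from 0 or from 1.

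The gap is the start of the second peak minus the end of the first. Peaks with 1 CPM in 3 libraries were fitted with limma 3.58.1 (trend, robust) in R 4.3.3 on log2(CPM + 1), and balances of all neighbouring pairs with limma (robust), group as the only term, adjusted p threshold 0.05. edgeR 4.0.16 and DESeq2 1.42.0 on the recovered tags were alternatives, beside TMM scaling, other pseudocounts, filters and gaps, and left-out libraries. Scripts were tested on simulated data. Named pairs follow a rule: the 6 most active; up to 4 joint rises and falls; up to 6 that moved apart; the 5 largest balance shifts each way with a summed mean of at least 5 CPM and no overlap; the 3 smallest gaps and 3 most alike; and those at the limit. Members and lists were chosen with earlier results of these data known. Replicate numbers were not taken to pair libraries.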

Additional observations from a re-analysis of the deposited data

How the results depend on the processing

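Leaving out the pairs of wide within-group range was an alternative chosen after seeing the data. The number of changed member peaks, 143, was 82 with DESeq2, 78 among peaks with a mean of at least 5 CPM, 74 for pairs formed at 1 CPM in all 6 libraries, and 90 to 155 with a library left out. Pairs with both peaks changed the same way, 20, numbered 4 with DESeq2, 6 with chromosome means removed, 2 with a mean of at least 5 CPM (42 pairs), 13 at 1 CPM in all 6 libraries, and 7 to 19 with a library left out. Pairs that moved apart, 1, numbered 2 with TMM scaling and 0 with edgeR, DESeq2, no filter, a mean of at least 5 CPM, 1 CPM in all 6 libraries or the replicate block, and 0 to 2 with a library left out. Changed balances, 30, numbered 14 with adjustment over pairs up to 1000 bp apart, 9 with a mean of at least 5 CPM, and between 14 and 29 on leaving out a library. The difference in summed CPM, -971, was 1803 with gaps up to 500 bp, 1762 at 1 CPM in all 6 libraries, 1138 without the most active pair, and from -1958 to -53.7 on leaving out a library. That in the weaker share, 0.285 percentage points, was -1.58 at 1 CPM in all 6 libraries, -0.123 without the most active pair, -0.0743 without the 20 pairs of wide range, and -0.0299 to 0.508 with a library left out. That in the plus-strand share, -5.90, was 0.174 with gaps up to 500 bp and from -6.60 to -4.93 on leaving out a library. Stricter filters and gaps test fewer pairs. Adjustment over pairs up to 1000 bp apart kept the fit and its p-values and changed only the set of pairs adjusted over. The cause of the remaining shifts was not tested. With the replicate block 135 peaks changed, 17 pairs moved the same way and 24 changed balance. Libraries with the same number deviated from their group means with correlations of -0.0053, 0.019 and 0.19, too low to take the numbers as pairing. FLT3-ITD replicates 2 and 3 each had their highest correlation with the double-mutant library of the same number. FLT3-ITD replicate 1 had its highest, 0.15, with double-mutant replicate 2. For named pairs, 416 of 502 refits of a called difference kept sign and call and 86 lost the call only. Depth limits weaker peaks, where 1 tag is worth up to 0.170 CPM.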
